A study of Mus musculus with 50 samples.

Results

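Microtubules are hollow polymers of alpha- and beta-tubulin along which cells sort their cargo and on which they build the mitotic spindle. The genes described here are the microtubule proteins and motors, chosen by gene symbol as the tubulins (Tuba, Tubb, Tubg), the stathmins (Stmn), the dynein chains (Dync, Dynl), the numbered kinesins (Kif) and the microtubule-associated proteins Map1a, Map1b, Map1s, Map2, Map4, Map6 and Map7. The rule uses gene symbols only. Of 108 matching symbols 7 pseudogene entries were dropped, leaving 101 of the 53700 genes in the count files. They comprised 8 alpha-tubulins, 8 beta-tubulins, 7 genes of the gamma-tubulin ring, 5 stathmins, 7 MAPs, 11 mitotic kinesins, 15 transport kinesins, 13 other kinesins, 5 chains of cytoplasmic dynein 1, 4 of the ciliary dynein 2, 15 dynein light chains and 3 further entries that are not protein-coding members of these families.

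RNA was measured in microglia, the resident macrophages of the brain, sorted as CD45int CD11b+ cells from the hippocampus of 50 male C57BL/6J mice, with 1 poly-A library per mouse. Early-life stress (ELS) was applied from P2 to P9 by limiting the bedding and nesting material of the dam, and control (CTR) litters had standard material. Mice were killed at P9 without an injection (12 P9-CTR and 13 P9-ELS) or at P200, 3 h after an intraperitoneal injection of PBS (7 P200-CTR-PBS and 6 P200-ELS-PBS) or of 1 mg/kg LPS (7 P200-CTR-LPS and 5 P200-ELS-LPS), a bacterial component that activates innate immune cells. Myelin was removed on a Percoll gradient from adult tissue but not at P9, so age and this step cannot be told apart, and the same holds for the P9 mice having had no injection. The study asked whether ELS changes the microglial transcriptome at P9, in adulthood, and in the response to LPS.

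In interphase cells most microtubules grow from the gamma-tubulin ring at the centrosome or the Golgi, MAPs stabilise them and stathmins bind free tubulin and promote their disassembly. Transport kinesins mostly carry cargo towards the plus end and cytoplasmic dynein towards the minus end, whereas mitotic kinesins are made in dividing cells, where they slide, depolymerise or crosslink spindle microtubules. Microglia proliferate in the first postnatal weeks and divide rarely in the adult brain. When they become reactive they retract processes, and their microtubule array is known to be reorganised around the centrosome.

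The mitotic kinesins shared a sequence feature at their gene starts that the symbol rule did not use. Promoter windows of 300 bases, from 250 before to 50 after the annotated start, were found for 70 of the 101 members in RefSeq (build GRCm38.p6, which is not the build of the counts). The letters TTTGAA, the core of the cell cycle genes homology region that represses genes outside of G2 and mitosis, were searched on both strands. They stood in the windows of 9 of 10 mitotic kinesins with a window, against 20.23% of all 27025 genes in the table. In 7 of the 10 the match began within 25 bases of the start, against 3.16% of all genes and 1 of the 60 other members with a window. The CCAAT box, which often lies upstream of this element and does not overlap it, was found on either strand in 6 of the 10, against 41.1% of all genes. Windows are shown for Kif11 (the motor that pushes spindle poles apart), Kif23 (the motor of the central spindle in cytokinesis) and Kif18b (a plus-end depolymerase), in which the match lay near the start. Capitals mark TTTGAA, or TTCAAA where it lies on the other strand.
Kif11, chr19:37376132-37376431, plus strand: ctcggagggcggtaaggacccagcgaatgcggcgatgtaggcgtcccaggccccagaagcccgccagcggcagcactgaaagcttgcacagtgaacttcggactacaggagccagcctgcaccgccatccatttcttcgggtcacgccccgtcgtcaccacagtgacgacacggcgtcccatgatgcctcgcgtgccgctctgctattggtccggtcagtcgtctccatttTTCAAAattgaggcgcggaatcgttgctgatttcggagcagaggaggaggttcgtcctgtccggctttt
Kif23, chr9:61946750-61947049, minus strand: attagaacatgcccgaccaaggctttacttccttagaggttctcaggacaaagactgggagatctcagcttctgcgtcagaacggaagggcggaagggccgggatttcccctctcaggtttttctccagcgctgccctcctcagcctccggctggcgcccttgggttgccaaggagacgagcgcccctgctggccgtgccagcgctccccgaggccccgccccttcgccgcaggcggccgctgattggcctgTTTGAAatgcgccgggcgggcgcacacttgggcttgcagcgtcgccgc
Kif18b, chr11:102925075-102925374, minus strand: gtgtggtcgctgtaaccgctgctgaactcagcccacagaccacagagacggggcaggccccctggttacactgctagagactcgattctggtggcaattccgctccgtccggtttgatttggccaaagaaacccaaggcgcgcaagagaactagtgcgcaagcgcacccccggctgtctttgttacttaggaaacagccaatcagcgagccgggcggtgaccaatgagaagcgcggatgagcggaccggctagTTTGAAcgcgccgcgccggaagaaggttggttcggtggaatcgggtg
The match began 19 bases before the annotated start in Kif11, 2 bases after it in Kif23 and 3 bases after it in Kif18b. Kif18a was the mitotic kinesin without a match. The windows were also located in GRCm39 by exact match and set against the GENCODE gene models, since a RefSeq start can be a minor one. The RefSeq start lay within 51 bases of the 5′ end of the gene in 7 of the 10, but 328 bases downstream of it in Kif4, 1505 in Kif14 and 3867 in Kif2c (a depolymerase at centromeres). At the 5′ end of Kif2c, where 8 of its 15 transcripts begin (3 begin at the RefSeq start), the window of the same length held no match. Windows at the 5′ end held a match in 7 of the 10 (all but Kif2c, Kif4 and Kif18a), beginning within 25 bases of that end in 6 of them. A match describes the letters only, and binding was not measured.

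Libraries held between 5152838 and 42231258 counts (median 19960409). All members together took up 0.486% to 0.643% of the counts in P9 mice and 0.213% to 0.297% in P200 mice. The groups were compared by the quasi-likelihood test of edgeR, with all 6 groups in a single fit, and a member was said to rise or fall where its adjusted p (Benjamini-Hochberg over all 16696 genes tested) was under 0.05. The filter of at least 1 CPM (counts scaled to equal library totals) in more than 2 mice was passed by 78 members, 12 of them through P9 mice alone, among them Map2, Stmn2, Tubb3 and Kif5c, and a member that passed that way had to be lower at P200. Of the 23 members that failed, among them Tuba8, Tubb1, Dynlrb2, Kif17 and the 3 further entries, the highest count in any mouse was 34. Microglia markers had a summed level of 35137 to 56780.3 (median 50989.9) CPM in P9-CTR and of 74886 to 80483 (median 79985) CPM in P200-CTR-PBS. In these bulk samples, fewer cells of a type and less RNA per cell cannot be told apart. The mice with the fewest genes above 0 were P9_19.3_ELS, P200_1.1_CTR_PBS and P9_19.2_ELS (12482, 12854 and 15731 genes). Each P200 mouse was left out in turn, but the P9 pair only together with P200_1.1_CTR_PBS, so calls that may rest on a single P9 mouse were not sought. Without these 3 mice the fall of Kif2a, a microtubule depolymerase, with age in ELS was at -0.54 (adjusted p = 0.0618) in place of -1.004 (adjusted p = 0.0332).

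Per kb of exon, Tubb5 was the member with the highest level over all mice, at 247 CPM per kb, followed by Tuba1a at 167 and Tuba1b at 105. Among the other subgroups, levels were highest for Dynlrb1 (a light chain of cytoplasmic dynein, 61.0 CPM per kb), Stmn1 (43.3), Tubgcp5 (a scaffold of the gamma-tubulin ring, 13.99), Dync1i2 (a dynein intermediate chain, 13.6), Kif5b (the heavy chain of conventional kinesin, 11.7), Kif20a (11.11), Map1s (5.67), Kif2a (2.77) and Dync2i2 (1.94). The order is a description over mice of both ages, and it turned with age. In P9-CTR the group means of Tubb5 and Tuba1a were 353 and 144 CPM per kb, in P200-CTR-PBS both were at 111, and in P200-CTR-LPS they were 134 and 268. The neuronal beta-tubulin Tubb3, at 4.18 CPM per kb, owed its level to P9 mice.

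The first comparison set the PBS-injected adults against P9 mice of the same condition. Members mostly fell with age. In CTR mice 49 fell and 2 rose, where 26.6% of all genes tested fell and 17.4% rose. In ELS mice 51 fell and 2 rose, against 25% and 17.15% of all genes. The median log2 fold change over the tested members was -1.19 in CTR and -1.30 in ELS, and over all genes -0.09 and -0.01. Of the falls, 46 were made in both conditions, which was 93.9% of those in CTR and 90.2% of those in ELS. These shares include members that the filter obliged to fall. They were not counted over all genes, so they are no trait of the members. Without the 12 members that passed the filter through P9 mice alone, 37 of 66 fell in CTR and 39 in ELS, with medians of -0.84 and -0.87. Among these 66 were 9 mitotic kinesins, 2 stathmins and 6 beta-tubulins, all of which fell in both conditions. The exclusion counted LPS mice among the adults, which the age comparison leaves out. Some of the 66, such as Stmn3 and Kif1a, were under 1 CPM in every P200-ELS-PBS mouse, so their ELS falls are not free of the filter. The same exclusion was not made for all genes, so the counts over the 66 have no like share beside them. Of the 5 chains of cytoplasmic dynein 1, 1 fell in each condition.

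**Figure D1:**
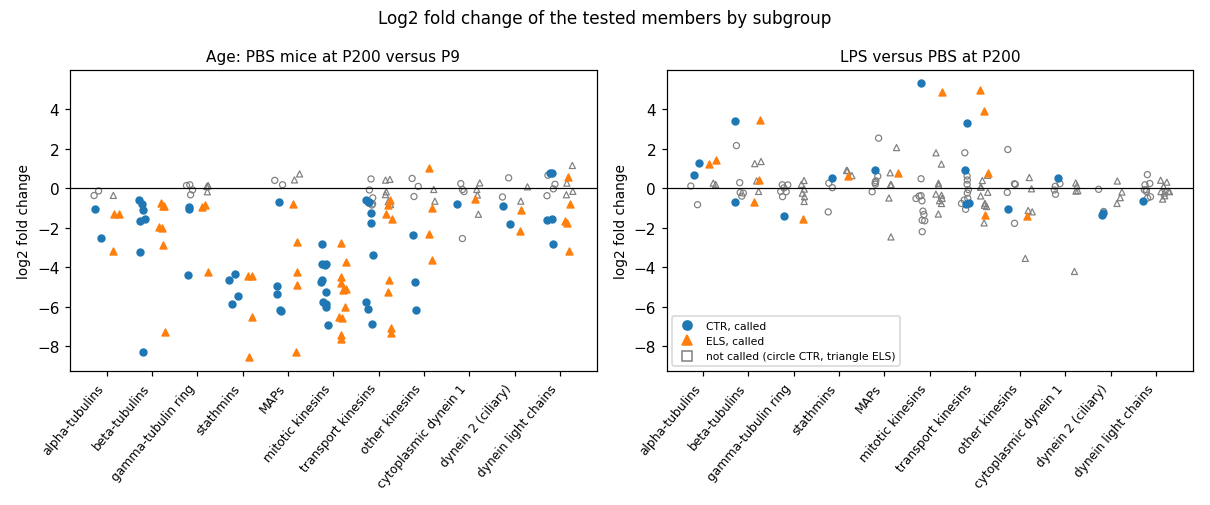
Log2 fold change (y axis) of the tested members by subgroup (x axis), with age in the left panel and with LPS in the right. Circles are CTR and triangles ELS, filled where the adjusted p was under 0.05. With age the mitotic kinesins, stathmins and several MAPs lie lowest, and with LPS a few members stand far above the rest, led by Kif2c in CTR at 5.298.

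The 11 mitotic kinesins, of which Kif14 and Kif18b had to be lower by the filter, fell with age in both conditions, by log2 fold changes between -2.83 and -6.93 in CTR and between -2.78 and -7.61 in ELS. Kif11 stood at 58.6 to 122 CPM (median 97.4) in P9-CTR, at 48.8 to 159.7 CPM (median 93.5) in P9-ELS, at 0.0713 to 9.01 CPM (median 1.61) in P200-CTR-PBS and at 0 to 4.65 CPM (median 1.52) in P200-ELS-PBS, and the ages did not overlap in either condition. Its log2 fold change was -5.27 ± 0.69 (adjusted p = 1.27e-08) in CTR and -5.995 ± 0.77 (adjusted p = 8.29e-09) in ELS. Kif23 fell from medians of 38.05 and 37.3 CPM in the P9-CTR and P9-ELS groups to 0.214 CPM in P200-CTR-PBS and 0.124 CPM in P200-ELS-PBS, with 5 of these 13 adults at 0 counts. Kif22, a chromosome arm motor, had 56.8 to 138 CPM (median 91.4) in P9-CTR and 0 to 14.7 CPM (median 2.01) in P200-CTR-PBS, where the highest adult value came from mouse P200_1.1_CTR_PBS and the next was 2.86 CPM. Its fold changes were -4.66 ± 0.50 (adjusted p = 7.77e-11) in CTR and -6.59 ± 0.61 (adjusted p = 7.74e-13) in ELS. Kif20a, which acts at the central spindle, kept the highest adult level of the subgroup before LPS, with 9.56 to 17.6 CPM (median 14.01) in P200-CTR-PBS against 51.08 to 140.1 CPM (median 98.5) in P9-CTR. It fell the least (-2.83 ± 0.19 in CTR and -2.78 ± 0.20 in ELS), and 54.8% of its exon bases are covered by exons of Cdc23 on the opposite strand. The strand setting of the counting is not given in the sources used here, so reads of such a pair may not be told apart. Cdc23 itself was at -0.35 ± 0.12 (adjusted p = 0.0184) in CTR and at -0.20 ± 0.13 (adjusted p = 0.213) in ELS. The proliferation markers moved in the same direction, from a summed 782 to 1259 (median 1112) CPM in P9-CTR to 40.7 to 70.5 (median 57.0) CPM in P200-CTR-PBS, and 7 of 7 fell in both conditions.

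**Figure D2:**
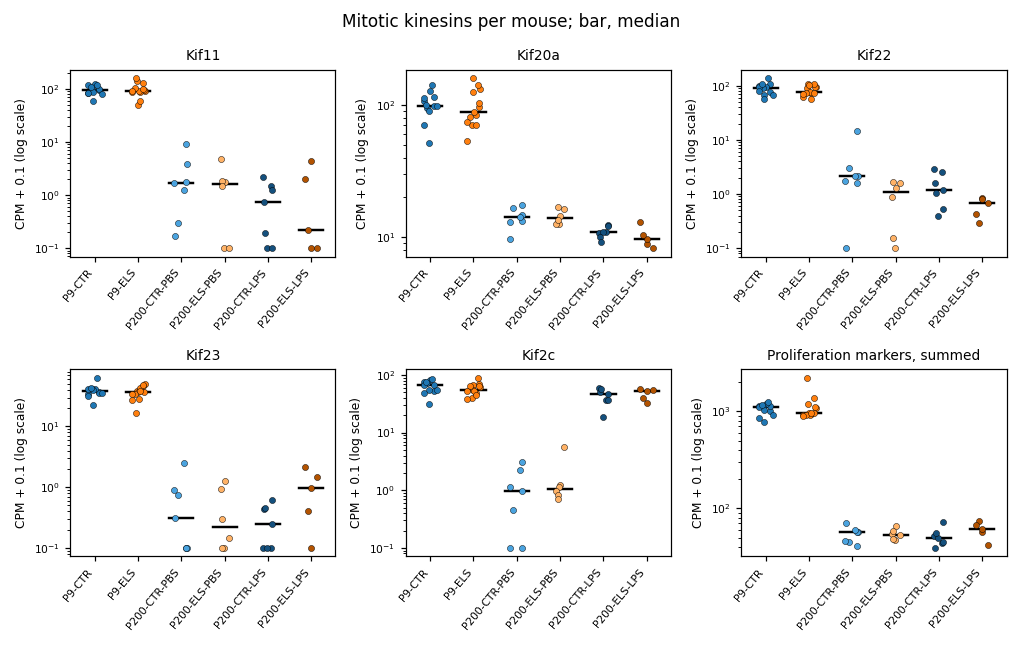
CPM + 0.1 on a log scale (y axis) of 5 mitotic kinesins and of the summed proliferation markers in each mouse of the 6 groups (x axis), with bars at the group medians. Kif11, Kif22, Kif23 and the proliferation markers are high at P9 and low in every adult group, whereas Kif2c returns after LPS to medians of 46.4 and 52.24 CPM.

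Of the tubulins, Tubb5, the most abundant beta-tubulin, was found at 888 to 1485 CPM (median 1160.0) in P9-CTR and 1138 to 1771 CPM (median 1309) in P9-ELS, and at 303 to 398 CPM (median 379) in P200-CTR-PBS and 288 to 374 CPM (median 323) in P200-ELS-PBS. The ages were fully apart, with log2 fold changes of -1.67 ± 0.11 (adjusted p = 2.57e-18) in CTR and -2.03 ± 0.12 (adjusted p = 2.78e-20) in ELS. Tuba1c, an alpha-tubulin, fell from medians of 48.7 and 61.9 CPM to 8.104 and 6.22 CPM (-2.54 ± 0.22 in CTR and -3.17 ± 0.24 in ELS). Tuba1b fell by less (-1.03 ± 0.16 and -1.31 ± 0.17), as did Tubb4b (-1.54 ± 0.18 and -1.94 ± 0.20), Tubb6 (-0.82 ± 0.22 and -0.88 ± 0.23) and Tubb2a (-0.59 ± 0.16 and -0.76 ± 0.16). Exons on the opposite strand overlap some tubulin genes. Bphl over Tubb2a was at -0.49 (adjusted p = 0.0444) in CTR and -0.96 (adjusted p = 0.000288) in ELS. Afg3l2 over Tubb6 was at -1.33 (adjusted p = 0.000395) and 0.01 (adjusted p = 0.985), and Gm41396 over Tuba1b at -0.96 and -1.16. Flot1 over Tubb5 was at -0.13 and 0.07 and Stk16 over Tuba4a at 0.03 and 0.04, with no call. Reads of such pairs may not be told apart. Tuba1a did not pass the test, at -0.37 ± 0.20 in CTR and -0.37 ± 0.20 in ELS (adjusted p = 0.12 and 0.149). Tuba4a fell in ELS (-1.29 ± 0.37, adjusted p = 0.00359), and in CTR it was at -0.14 ± 0.33, with 1 adult (P200_1.1_CTR_PBS) at 22.4 CPM and the others at 2.99 to 5.95 CPM.

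Members that are typical of neurons fell with age in both conditions. Of those named here, Tubb3, Map2, Stmn2 and Kif5c passed the filter through P9 mice alone. Their lower level at P200 was thus fixed by the filter, and their values only describe its size. Stmn3 and Kif1a also passed through some adults, but every P200-ELS-PBS mouse was under 1 CPM in both, so their ELS falls carry a like limit. Tubb3 had 12.7 to 43.03 CPM (median 31.6) in P9-CTR and 1.57 to 38.2 CPM (median 24.1) in P9-ELS, but 0 to 0.437 CPM (median 0.0342) in P200-CTR-PBS and 0 to 1.03 CPM (median 0) in P200-ELS-PBS. No adult PBS mouse reached the lowest P9 value of its condition, and the log2 fold changes were -8.301 ± 0.78 (adjusted p = 1.03e-12) and -7.26 ± 0.78 (adjusted p = 7.79e-11). The highest ELS adult, at 1.03 CPM, was P200_20.2_ELS_PBS, and the other 5 were at 0 counts, so the size of the fitted ELS value rests on that mouse. Map2, a dendritic MAP, fell from medians of 41.2 and 26.9 CPM to 0.213 and 0 CPM (-6.17 ± 0.70 in CTR and -8.28 ± 0.89 in ELS). Map1b, a MAP of growing axons, had 68.6 to 208 CPM (median 145) in P9-CTR and 0 to 7.46 CPM (median 4.71) in P200-CTR-PBS (-4.98 ± 0.48 in CTR and -4.90 ± 0.51 in ELS). Stmn2, a stathmin of regrowing axons, changed by -5.85 ± 0.64 and -8.55 ± 0.84, and Stmn3 by -4.64 ± 0.61 and -6.52 ± 0.75. The axonal kinesins Kif1a and Kif5c fell too, Kif1a at -6.87 ± 0.66 and -7.33 ± 0.74, and Kif5c at -6.12 ± 0.80 and -4.64 ± 0.79. Without P200_20.2_ELS_PBS, which had 4.13 CPM, the ELS value of Kif5c was -7.25. The 12 neuron markers, none of them a member, moved with these genes, from a summed 65.1 to 164 (median 123) and 27.8 to 127 (median 96.2) CPM in the P9-CTR and P9-ELS mice to 6.11 to 12.8 (median 8.58) and 4.73 to 13.03 (median 9.04) CPM in the adults, and 12 of 12 fell in CTR and 10 of 12 in ELS. None of the 12 was at 0 in any P9-CTR mouse, and in P9-ELS Syn1, Slc17a7, Dlg2 and Elavl3 were at 0 in 1 mouse each and Gad1 in 2. Several of the 12, such as Gap43, Slc17a7 and Dlg2, had means under 1 CPM in every adult group. Filter passing by age was not counted for the markers, so some of their falls may have been fixed by it, and their counts only describe. Border macrophage markers were likewise higher at P9, by summed level 534 to 914 (median 709) CPM in P9-CTR against 2.84 to 9.41 (median 6.08) CPM in P200-CTR-PBS. Nearly all of it was Mrc1, with means of 711 and 5.76 CPM. Cd163, Lyve1 and Pf4 had means of at most 5.42 CPM in P9-CTR. Of the 6 astrocyte markers, 5 fell and 1 rose with age in both conditions. The part of other cells in the falls with age was not tested.

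**Figure D3:**
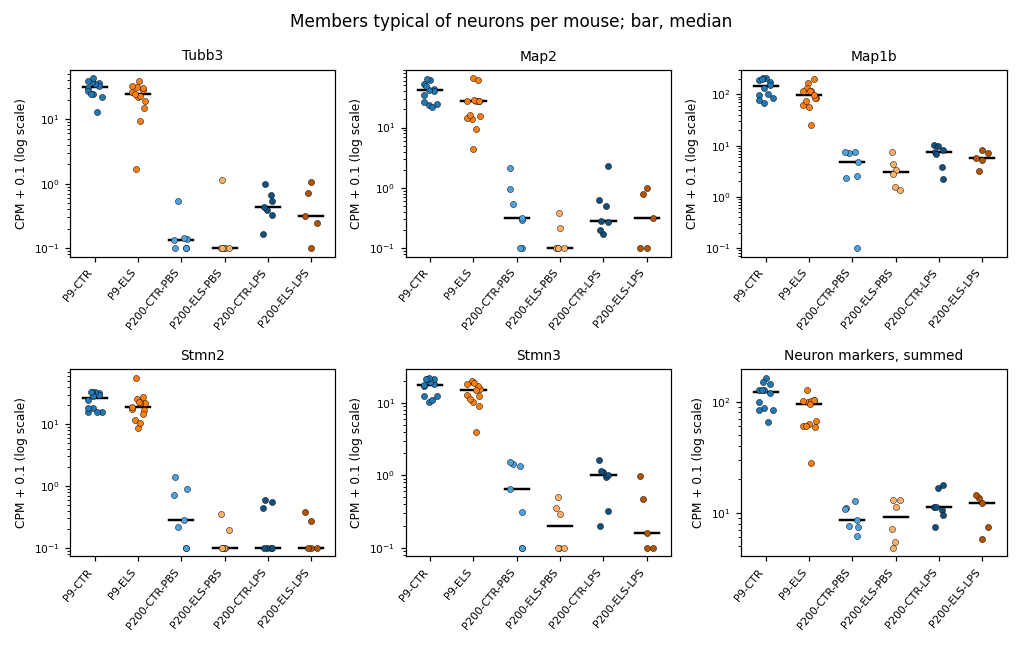
CPM + 0.1 on a log scale (y axis) of 5 members typical of neurons and of the summed neuron markers in each mouse of the 6 groups (x axis), with bars at the group medians. All 6 panels are high at P9 and low in the adults, where Map2, Stmn2 and Stmn3 include mice at 0.

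Stmn1, a stathmin that is abundant in dividing cells, was at 305 to 496 CPM (median 363) in P9-CTR, 367 to 692 CPM (median 415) in P9-ELS, 14.5 to 20.8 CPM (median 19.19) in P200-CTR-PBS and 16.5 to 25.2 CPM (median 19.8) in P200-ELS-PBS, which gave log2 fold changes of -4.35 ± 0.17 (adjusted p = 8.26e-27) and -4.44 ± 0.18 (adjusted p = 8.89e-26). Map4, the widely expressed MAP, fell by less than 1 log2 unit (-0.72 ± 0.18 in CTR and -0.82 ± 0.19 in ELS), and Map7 and Map1s did not pass the test.

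Among the motors, Kif5b fell from 142 to 245 CPM (median 201) in P9-CTR to 53.7 to 105 CPM (median 79.3) in P200-CTR-PBS (-1.26 ± 0.16, adjusted p = 3.02e-09), and it was at -1.298 ± 0.16 in ELS. Kif16b, an endosome motor, fell, at -1.75 ± 0.28 and -1.58 ± 0.29. The heavy chain Dync1h1 was the chain of dynein 1 that fell (-0.80 ± 0.21, adjusted p = 0.00144 in CTR and -0.53 ± 0.21, adjusted p = 0.041 in ELS). The ELS call was lost without any 1 of 5 PBS mice (adjusted p from 0.0541 to 0.13), with no filter or filterByExpr, with only the groups compared, with counts summed per number in the mouse label and with limma voom. The light chain Dynlt1a fell from medians of 11.4 and 14.3 CPM to 1.74 and 1.70 CPM (-2.85 ± 0.29 and -3.19 ± 0.31), whereas its near copy Dynlt1c stood at -0.03 and -0.16 and did not pass the test. The Dynlt1 genes are near-identical copies, so that counts may be split between them. Exons of Tmem181a on the opposite strand cover 19.6% of Dynlt1a, and Tmem181a fell as well, at -0.78 ± 0.14 and -0.78 ± 0.15. In the gamma-tubulin ring, Tubg1, the gamma-tubulin itself, fell, at -1.03 ± 0.18 and -0.96 ± 0.19 and its partner Tubgcp2 fell, at -0.97 ± 0.14 and -0.84 ± 0.14. Retreg3, whose opposite-strand exons cover 13.6% of Tubg1, was at 0.03 and -0.02, with no call. Tubgcp5 was at 0.13 ± 0.14 and 0.13 ± 0.14 and did not pass the test.

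The rises with age were few. Dynll1, a light chain that dynein shares with many other complexes, had 61.5 to 94.7 CPM (median 73.2) in P9-CTR and 95.4 to 176 CPM (median 128) in P200-CTR-PBS, without overlap (0.77 ± 0.11, adjusted p = 2.44e-07). In ELS it was at 0.26 ± 0.12 (adjusted p = 0.0791). Exons of Coq5 on the opposite strand cover 29.5% of Dynll1, and Coq5 rose in CTR as well, at 0.50 ± 0.13 (adjusted p = 0.00181). Dynlt2b rose in both conditions (0.76 ± 0.21, adjusted p = 0.00267 in CTR and 0.54 ± 0.22, adjusted p = 0.0397 in ELS), and Kif9, a kinesin of ciliated cells, rose in ELS (1.002 ± 0.32, adjusted p = 0.00964) and stood at 0.49 ± 0.32 (adjusted p = 0.211) in CTR. The call for Dynlt2b in ELS was lost in several alternatives, in some by leaving out 1 mouse.

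The second comparison set LPS against PBS at P200 within each condition. In CTR mice 9 members rose and 8 fell, where 8.73% of all genes tested rose and 6.2% fell. In ELS mice 10 rose and 4 fell, against 7.4% and 4.94% of all genes. The median log2 fold change over the tested members was -0.09 in CTR and 0.01 in ELS, and over all genes 0.00 and -0.04. Of the rises, 8 were made in both conditions (88.9% of those in CTR and 80% of those in ELS), and 4 falls were (50% and 100%). Calls made in both conditions were not counted over all genes here either. The 6 LPS response genes rose in both conditions, from a summed 161 to 218 (median 192) CPM in P200-CTR-PBS to 2434 to 4701 (median 3363) CPM in P200-CTR-LPS. Scaling by library size alone lowered the median of all genes by 0.13 in CTR and by 0.21 in ELS on the log2 scale, and then 6 members rose and 9 fell in CTR and 7 rose and 6 fell in ELS. The shares of all genes called under this scaling are not given here, so these counts are no result about the members.

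Kif2c (ENSMUSG00000028678, chr4:117016830-117039836, GRCm39, minus strand) was the 1 mitotic kinesin of 11 that rose after LPS. It stood at 0 to 2.997 CPM (median 0.851) in P200-CTR-PBS and 0.597 to 5.46 CPM (median 0.955) in P200-ELS-PBS. After LPS it was at 18.5 to 58.7 CPM (median 46.4) in P200-CTR-LPS, and at 52.23, 32.998, 39.3, 57.5 and 54.8 CPM in the 5 P200-ELS-LPS mice. Every LPS mouse lay above every PBS mouse, and the LPS values were within the range of 31.7 to 84.7 CPM (median 66.9) in P9-CTR in all but 1 mouse. The log2 fold change was 5.298 ± 0.47 (adjusted p = 7.32e-13) in CTR and 4.86 ± 0.50 (adjusted p = 9.24e-11) in ELS. The proliferation markers overlapped between PBS and LPS, with a summed 40.7 to 70.5 (median 57.0) CPM in P200-CTR-PBS and 39.2 to 71.8 (median 49.3) CPM in P200-CTR-LPS, and 46.7 to 66.1 (median 53.8) and 42.0 to 74.9 (median 61.7) CPM in the ELS groups, and 0 of 7 passed the test in either condition. Of the other 10 mitotic kinesins 0 passed the test, and at an unadjusted p under 0.05 there were 4 in CTR (Kif11, Kif20a, Kif22 and Kif23) and 2 in ELS (Kif20a and Kif20b), all lower after LPS. Of all 16696 genes, 4431 in CTR and 4079 in ELS had an unadjusted p under 0.05 in either direction, so these counts are no result about the subgroup. Kif11 was at -1.65 ± 0.70 and -0.30 ± 0.80, Kif23 at -1.62 ± 0.76 and 1.22 ± 0.74 and Kif22 at -1.34 ± 0.50 and -0.78 ± 0.69, all with adjusted p values from 0.06 to 0.872. The CTR value of Kif22 includes the PBS mouse P200_1.1_CTR_PBS, which lay far above the others in this gene.

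The tubulins changed unequally after LPS. Tubb6 (ENSMUSG00000001473), a minor beta-tubulin, had 7.89 to 21.6 CPM (median 16.9) in P200-CTR-PBS and 10.2 to 28.3 CPM (median 16.6) in P200-ELS-PBS, and rose to 75.3 to 276 CPM (median 158) in P200-CTR-LPS and to 248, 94.3, 144, 215 and 252 CPM in the 5 P200-ELS-LPS mice. LPS and PBS mice did not overlap, and the log2 fold change was 3.41 ± 0.26 (adjusted p = 4.16e-15) in CTR and 3.47 ± 0.29 (adjusted p = 6.76e-14) in ELS. Its exons are covered to 26.7% by those of Afg3l2 on the opposite strand, which was at 0.91 ± 0.33 (adjusted p = 0.055) in CTR and at -0.41 ± 0.37 (adjusted p = 0.547) in ELS. Tuba1a (ENSMUSG00000072235, chr15:98847714-98851589, GRCm39, minus strand) had 185 to 213 CPM (median 204) in P200-CTR-PBS and 172 to 267 CPM (median 189) in P200-ELS-PBS, and rose to 264 to 593 CPM (median 501) in P200-CTR-LPS and to 491, 418, 424, 569.6 and 539 CPM in the 5 P200-ELS-LPS mice. The lowest LPS value, 264 CPM in mouse P200_5.3_CTR_LPS, lay just under the highest PBS value of the ELS mice. The log2 fold change was 1.27 ± 0.22 (adjusted p = 1.86e-05) in CTR and 1.23 ± 0.25 (adjusted p = 0.000249) in ELS, whereas Tuba1b, which is nearly identical in protein, was at 0.11 ± 0.18 and 0.25 ± 0.20 and did not pass the test. Tuba1a, Tuba1b and Tuba1c are close copies, so that counts of unique reads may leave out what they share. Tuba1c rose by 0.67 ± 0.22 (adjusted p = 0.0336) in CTR and by 1.41 ± 0.25 (adjusted p = 4.32e-05) in ELS. Tubb5 rose in ELS (0.41 ± 0.13, adjusted p = 0.0225), a call that was lost by scaling to library size alone (0.20, adjusted p = 0.228) and without P200_17.3_ELS_LPS (adjusted p = 0.0821), P200_20.1_ELS_LPS (adjusted p = 0.0692) or P200_20.2_ELS_PBS (adjusted p = 0.0564), and in CTR it was at 0.28 ± 0.11 (adjusted p = 0.0858). Exons of Flot1 on the opposite strand cover 45.6% of Tubb5, and Flot1 was at 0.41 ± 0.15 (adjusted p = 0.0569) in ELS. Tubb2a fell from 81.5 to 97.4 CPM (median 84.5) in P200-CTR-PBS to 29.5 to 70.7 CPM (median 55.5) in P200-CTR-LPS, without overlap (-0.72 ± 0.17, adjusted p = 0.00184), and in ELS it fell too, at -0.69 ± 0.20 (adjusted p = 0.0125). Exons of Bphl on the opposite strand cover 89.2% of Tubb2a, and Bphl was at -0.02 ± 0.22 (adjusted p = 0.978) in CTR and at 0.24 ± 0.25 (adjusted p = 0.623) in ELS.

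**Figure D4:**
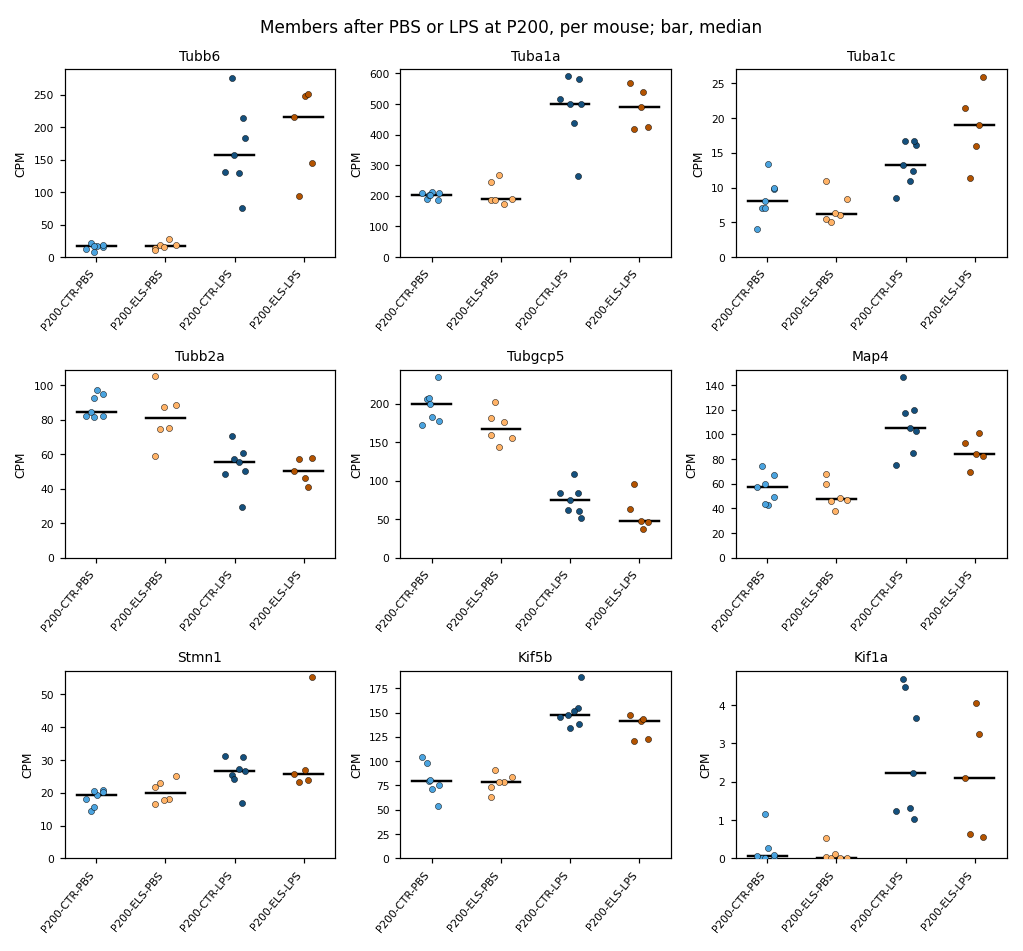
CPM (y axis, from 0) of 9 members in each P200 mouse, by group (x axis), with bars at the group medians. Tubb6, Tuba1a, Map4 and Kif5b lie higher after LPS in both conditions, Tubb2a and Tubgcp5 lie lower, and 1 ELS-LPS mouse stands apart in Stmn1 at 55.27 CPM.

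Of the gamma-tubulin ring, Tubgcp5 fell after LPS in both conditions. It was at 173 to 235 CPM (median 199.9) in P200-CTR-PBS and 144 to 203 CPM (median 168) in P200-ELS-PBS, and after LPS at 52.16 to 108 CPM (median 74.9) in P200-CTR-LPS and at 47.2, 96.4, 46.8, 63.1 and 37.5 CPM in the 5 P200-ELS-LPS mice. No LPS mouse reached the lowest PBS value, and the log2 fold change was -1.39 ± 0.16 (adjusted p = 1.61e-09) in CTR and -1.55 ± 0.19 (adjusted p = 6.39e-09) in ELS. The other 6 genes of the gamma-tubulin ring did not pass the test. Tubg1 was at -0.17 ± 0.20 and -0.26 ± 0.23, and Tubgcp2 at 0.16 ± 0.15 and -0.05 ± 0.17.

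Among MAPs and stathmins, Map4 rose from 42.4 to 74.7 CPM (median 57.7) in P200-CTR-PBS to 75.1 to 147 CPM (median 105) in P200-CTR-LPS (0.93 ± 0.20, adjusted p = 0.000545), and in ELS from 37.6 to 68.0 CPM (median 47.6) in P200-ELS-PBS to 84.4, 69.3, 82.8, 93.3 and 101 CPM in the 5 P200-ELS-LPS mice (0.75 ± 0.23, adjusted p = 0.0189). The ELS call was lost by scaling to library size alone (0.53, adjusted p = 0.11) and without P200_20.1_ELS_LPS (adjusted p = 0.0567) or P200_20.2_ELS_PBS (adjusted p = 0.0542). Stmn1 rose by 0.50 ± 0.15 (adjusted p = 0.0216) in CTR and by 0.61 ± 0.17 (adjusted p = 0.0132) in ELS, to 16.95 to 31.1 CPM (median 26.7) in P200-CTR-LPS and to 27.1, 23.3, 55.27, 25.8 and 23.9 CPM in the 5 P200-ELS-LPS mice. Without mouse P200_11.2_ELS_LPS, the ELS value was 0.30 (adjusted p = 0.258). After LPS Stmn1 remained far below its P9 levels, of which the lowest was 305 CPM. Map2, Stmn2 and Stmn3 did not pass the test after LPS.

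Of the transport kinesins, Kif5b rose from 53.7 to 105 CPM (median 79.3) in P200-CTR-PBS to 134 to 187 CPM (median 147) in P200-CTR-LPS (0.91 ± 0.17, adjusted p = 4.97e-05), and from 63.0 to 91.3 CPM (median 78.4) in P200-ELS-PBS to 141, 121, 122, 147 and 143 CPM in the 5 P200-ELS-LPS mice (0.79 ± 0.19, adjusted p = 0.00215). LPS and PBS mice did not overlap. Kif1a, a motor of synaptic vesicle precursors, rose from 0 to 1.16 CPM (median 0.0713) in P200-CTR-PBS and 0 to 0.536 CPM (median 0.0178) in P200-ELS-PBS to 1.02 to 4.67 CPM (median 2.22) in P200-CTR-LPS and to 4.06, 0.644, 0.556, 2.09 and 3.25 CPM in the 5 P200-ELS-LPS mice. Its log2 fold change was 3.32 ± 0.61 (adjusted p = 5.21e-05) in CTR and 3.91 ± 0.73 (adjusted p = 7.49e-05) in ELS, with 3 PBS mice at 0 counts in each condition. Without P200_2.1_ELS_PBS the ELS value was 5.998. The neuron markers were at a summed 7.31 to 17.7 (median 11.12) CPM in P200-CTR-LPS and 5.73 to 14.4 (median 12.2) CPM in P200-ELS-LPS, so their range overlapped that of PBS mice, and 0 of the 12 rose in CTR and 1 in ELS (Dlg2, 4.38 ± 1.304, adjusted p = 0.0179). Dlg2 was near 0 in both groups, with means of 0.00593 CPM in P200-ELS-PBS and 0.248 CPM in P200-ELS-LPS. Kif21b, a motor that also halts microtubule growth, fell, at -0.83 ± 0.26 (adjusted p = 0.0234) in CTR and at -1.37 ± 0.30 (adjusted p = 0.000927) in ELS. Kif3a, a subunit of kinesin-2, fell in CTR (-0.76 ± 0.26, adjusted p = 0.0379) and was at 0.39 ± 0.29 (adjusted p = 0.45) in ELS. Kif21a is named outside the rule, after its values were seen, as a further rise in ELS. It had 0 to 0.0517 CPM in P200-ELS-PBS and 0 to 0.714 CPM in P200-ELS-LPS, so no fold is given. Kif9 fell, at -1.05 ± 0.37 (adjusted p = 0.0424) in CTR and at -1.41 ± 0.42 (adjusted p = 0.0182) in ELS.

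Some dynein chains passed the test in CTR and no dynein chain did in ELS, but no interaction of LPS and condition was called. Dync1li2, a light intermediate chain that links dynein to its adaptors, rose from 39.5 to 59.8 CPM (median 47.5) in P200-CTR-PBS to 61.1 to 81.5 CPM (median 73.3) in P200-CTR-LPS (0.53 ± 0.14, adjusted p = 0.00541) and was at 0.26 ± 0.16 (adjusted p = 0.32) in ELS. The CTR call was lost by scaling to library size alone (0.41, adjusted p = 0.0592). Dynll1 fell from 95.4 to 176 CPM (median 128) in P200-CTR-PBS to 67.8 to 100.5 CPM (median 77.5) in P200-CTR-LPS (-0.65 ± 0.13, adjusted p = 0.00021) and was at -0.18 ± 0.15 (adjusted p = 0.501) in ELS. Its fall in CTR and its rise with age in CTR share the P200-CTR-PBS mice, so they are not independent. The ciliary chains Dync2i1 (-1.38 ± 0.44, adjusted p = 0.025) and Dync2i2 (-1.27 ± 0.42, adjusted p = 0.0289) fell in CTR, but these calls rested on mouse P200_1.1_CTR_PBS, which had 25.1 and 30.8 CPM where the other PBS mice had at most 6.82 and 5.84. Without it the changes were -0.71 (adjusted p = 0.279) and -0.31 (adjusted p = 0.636).

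Some markers of other cells moved with LPS. Astrocyte markers summed to 299 to 503 (median 332) CPM in P200-CTR-PBS and to 483 to 613 (median 572) CPM in P200-CTR-LPS, and nearly all of it was Slc1a3 (means of 356 and 550 CPM), while Gfap, Aqp4, Slc1a2, Aldh1l1 and Gja1 had means of at most 2.03 CPM in these groups. Slc1a3 was the 1 of 6 that rose in CTR (0.63 ± 0.16, adjusted p = 0.00492). In ELS the sums were 314 to 454 (median 392) CPM after PBS and 418 to 584 (median 524) CPM after LPS, and 2 of 6 rose, Gfap (3.92 ± 0.86, adjusted p = 0.000787) and Gja1 (4.47 ± 0.99, adjusted p = 0.000957), to means of 1.66 and 1.91 CPM. Their part in the changes of the members was not tested. Of the monocyte and neutrophil markers 0 of 2 tested passed, and the summed level was at most 8.98 CPM in P200-CTR-PBS and 8.41 CPM in P200-CTR-LPS. The calls of Tuba1a, Tubb6, Kif2c, Tubgcp5, Kif5b and Kif1a were kept in both conditions in every alternative tried other than the fold threshold, which Kif5b missed in both conditions. The calls of Tuba1c, Stmn1, Kif9, Kif21b and Kif3a in CTR were lost in several, among them the omission of single mice.

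The third set of comparisons asked whether ELS changed these genes. No member passed the test for ELS against CTR at P9 (0% of all genes tested), after PBS (0.168%) or after LPS (0%), nor for the interactions of condition with LPS (0%) and with age (0.0299%). At an unadjusted p under 0.05 there were 3, 13, 10, 10 and 12 of the 78 tested members, and 914, 1622, 798, 980 and 1712 of all 16696 genes. DESeq2 called 0, 4, 0, 1 and 0 members, edgeR's likelihood-ratio test 0, 5, 0, 1 and 0, and limma with voom none. The shares of all genes called by these methods are not given here, so these counts are no result about the members. Map2 was at 0 counts in 2 of 7 P200-CTR-PBS and 4 of 6 P200-ELS-PBS mice, with highest values of 2.02 and 0.285 CPM. Stmn2 was at 0 in 2 and 4 of these mice and reached 1.28 and 0.259 CPM, and Stmn3 was at 0 in 2 and 3 and reached 1.43 and 0.402 CPM. All 3 were lower in ELS on average, and the groups overlapped. The log2 fold changes were -2.73 ± 0.90 (adjusted p = 0.194), -2.93 ± 0.87 (adjusted p = 0.134) and -2.15 ± 0.71 (adjusted p = 0.197). DESeq2 called Stmn2 (-3.03, adjusted p = 0.0189) and Stmn3 (-2.22, adjusted p = 0.0463), and the likelihood-ratio test called Map2 (-2.79, adjusted p = 0.0457) and Stmn2 (-2.88, adjusted p = 0.0181). The summed neuron markers overlapped between these groups, at 6.11 to 12.8 (median 8.58) and 4.73 to 13.03 (median 9.04) CPM, and 0 of 12 were called. The unadjusted p was under 0.05 for 4 of them, Dlg2 (-4.76), Grin2b (-1.53) and Nefm (-1.68) lower in ELS and Syn1 (2.61) higher. All 4 had means under 1 CPM in both groups, such as 0.332 and 0.00593 CPM for Dlg2 and 0.117 and 0.743 CPM for Syn1. Of the 6 astrocyte markers 1 was lower in ELS, Gfap (-3.58 ± 0.82, adjusted p = 0.0466, means of 1.28 CPM in P200-CTR-PBS and 0.108 CPM in P200-ELS-PBS), and the median over them was -1.76. The part of these cells in the values of Map2, Stmn2 and Stmn3 was not tested. Without P200_18.2_CTR_PBS, Map2 was at -1.70 (adjusted p = 0.573).

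The lowest unadjusted p after PBS was that of Kif21a (-4.24 ± 1.07, adjusted p = 0.0673), at 0 to 0.642 CPM in P200-CTR-PBS. Kif22 followed (-2.04 ± 0.54, adjusted p = 0.0801), where the highest mouse of the P200-CTR-PBS group, P200_1.1_CTR_PBS, lay far above the next. For the difference of ELS from CTR, Tubb5, a tubulin with high counts, had narrower errors than Tuba1a and the kinesin Kif2c. Tubb5 was at 0.18 ± 0.08 at P9, -0.18 ± 0.12 after PBS and -0.05 ± 0.12 after LPS, Tuba1a at 0.04 ± 0.16, 0.05 ± 0.23 and 0.01 ± 0.24, and Kif2c at -0.16 ± 0.29, 0.56 ± 0.46 and 0.12 ± 0.42. For the response to LPS, the difference between conditions was 0.06 ± 0.36 for Tubb6, -0.44 ± 0.62 for Kif2c and -0.15 ± 0.24 for Tubgcp5. A p that misses the threshold does not show that the conditions were alike.

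Other microtubule genes were counted from fixed lists, against the shares of all genes given above (17.4% up and 26.6% down with age in CTR, 8.73% and 6.2% with LPS). Most of these lists have so few genes that a single call moves their share widely, and counts near those shares, such as those of the tubulin-modifying enzymes, are no result about the list. Filter passing by age was not counted for these genes either, so some of their falls with age may have been fixed by it. Of 11 spindle assembly genes, 10 fell with age in each condition, among them Hmmr (-7.68 ± 0.61 in CTR) and Ska1 (-8.06 ± 0.92). After LPS, 1 rose in CTR (Ska3, 1.94 ± 0.57, adjusted p = 0.0131) and 1 fell in ELS (Nusap1, -2.07 ± 0.65, adjusted p = 0.0268). Of the 14 tested other MAPs, 9 fell with age in each condition, with the neuronal Dcx at -9.25 ± 0.78 and Mapt (tau) at -5.13 ± 0.59 in CTR, and 1 rose in CTR, Mtus1 (0.89 ± 0.10). Mtus1 then fell after LPS (-1.28 ± 0.12, adjusted p = 2.12e-12 in CTR, and -1.39 ± 0.14, adjusted p = 1.81e-11 in ELS), and 2 others of the list rose in CTR, Dclk2 (2.37 ± 0.66, adjusted p = 0.00898) and Mid1 (1.93 ± 0.51, adjusted p = 0.00541). Of the 17 dynactin subunits and dynein adaptors, 6 rose and 5 fell with age in CTR and 5 rose and 4 fell in ELS. The dynein regulator Ndel1 rose with age (0.55 ± 0.12 in CTR and 0.55 ± 0.12 in ELS) and after LPS (0.83 ± 0.14, adjusted p = 7.35e-06 in CTR and 0.86 ± 0.16, adjusted p = 4.53e-05 in ELS), and Hook1 of the same list fell after LPS in CTR (-3.72 ± 1.18, adjusted p = 0.0262). Of the 16 tested tubulin-modifying enzymes, 4 rose and 4 fell with age in CTR and 3 rose and 4 fell in ELS. After LPS 1 rose in each condition, the detyrosinating enzyme Vash1 (2.31 ± 0.41, adjusted p = 2.21e-05 in CTR and 2.07 ± 0.45, adjusted p = 0.000636 in ELS). Of the 11 tested plus-end tracking proteins, 3 rose and 4 fell with age in CTR and 4 rose and 3 fell in ELS. Clasp2, which stabilises plus ends, fell after LPS (-0.67 ± 0.19, adjusted p = 0.0115 in CTR and -0.74 ± 0.22, adjusted p = 0.0181 in ELS), as did Clip1 in ELS (-0.61 ± 0.20, adjusted p = 0.0337). Of 11 kinesin light chains and partners, 6 fell with age in CTR and 4 in ELS, and 1 rose after LPS in CTR (Trak1, a mitochondrial adaptor, 1.18 ± 0.34, adjusted p = 0.011). Of the 8 tested severing and minus-end proteins, 1 rose and 3 fell with age in CTR and 2 and 2 in ELS, and of the 7 tubulin folding cofactors 1 fell in CTR and 3 fell and 1 rose in ELS. After LPS 1 severing protein rose (Katna1, 0.72 ± 0.21, adjusted p = 0.0147) and 1 minus-end protein fell (Camsap1, -0.95 ± 0.32, adjusted p = 0.0403), both in ELS, and no folding cofactor passed the test.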

How the data were processed

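Hippocampal microglia of 50 mice were measured by RNA-seq, with 1 library per mouse. The deposited values were raw read counts per gene, which the authors made by trimming with cutadapt 2.10, mapping to GRCm39 with STAR and counting unique exonic reads with HTSeq 0.11.0. The strand setting and the annotation release are not given in the sources used here. Groups came from the sample titles, and nothing else marked replicates.

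Genes that reached 1 CPM in over 2 mice were kept and fitted in edgeR 4.0.16 (R 4.3.3), with TMM normalization, 6 group means, quasi-likelihood tests and Benjamini-Hochberg adjustment over all 16696 genes. Errors after ± are standard errors of log2 fold changes. The steps were tested on simulated counts. Promoter windows came from RefSeq and figures from matplotlib 3.10.9. DESeq2 1.42.0, limma 3.58.1, other filters, scalings, fits and omissions of mice were the alternatives.

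The members, subgroups and lists were chosen with earlier results of these data known. Members were named by subgroup: the 3 with the highest mean CPM per kb, up to 3 called rises and 3 called falls per age or LPS comparison among those with a mean of at least 1 log2 CPM, any called for ELS, and Map2, Stmn2 and Stmn3, since the study names Stmn2, Stmn3 and a gene written as Map, so that they are no independent choice. Mice of 1 litter may be more alike than the tests assume.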

Additional observations from a re-analysis of the deposited data

Results flagged for a closer look

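In 188 groups of 5 to 7 mice, a member's lowest or highest mouse was set against the rest by Dixon's 95% criterion on log2(CPM + 0.1). Of these, 24 were past it, in 8 mice. The nominal rate of about 1 in 20 groups holds for independent normal values. Here values include zeros and members share the same mice, so an excess over that rate was not tested. All values below are CPM.

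The P200-CTR-PBS mouse P200_1.1_CTR_PBS, which had the fewest detected genes of the adults, stood apart in 8 members. It was the highest of its group in Tuba4a (22.4), Dync2i1 (25.1), Dync2i2 (30.8) and Dynlt3 (86.9), and the lowest in Tubb5 (303), Dync1h1 (25.1), Kif3b (0.204) and Map1b (0). The P200-CTR-LPS mouse P200_5.3_CTR_LPS was the lowest of its group in 5 members, with 264 in Tuba1a, 144 in Tuba1b, 29.5 in Tubb2a, 18.5 in Kif2c and 17.0 in Stmn1. Its summed LPS response genes, at 2803, lay within the range of its group.

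The P200-ELS-PBS mouse P200_20.2_ELS_PBS was the highest of its group in Tubb3 (1.03) and Kif5c (4.13) and the lowest in Dync1h1 (38.5) and Dynlt1a (0.380). The P200-ELS-PBS mouse P200_17.2_ELS_PBS was the lowest in Dync2i2 (0.814) and the highest in Kif2c (5.46), and the P200-ELS-LPS mouse P200_11.2_ELS_LPS the highest in Stmn1 (55.27) and the lowest in Dync1li1 (38.6). Single members were lowest in the P200-ELS-LPS mouse P200_4.2_ELS_LPS (Tubb4a, 0.176), the P200-CTR-PBS mouse P200_18.2_CTR_PBS (Dync2h1, 3.35) and the P200-CTR-LPS mouse P200_8.2_CTR_LPS (Kif16b, 1.91).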

How the results depend on the processing

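Members called for ELS against CTR after PBS numbered 0, but 5 by the likelihood-ratio test of edgeR (Map2, Kif21a, Stmn2, Kif22 and Kif7), 4 by DESeq2 (Kif21a, Stmn2, Stmn3 and Kif22) and 1 without the 3 mice with the fewest detected genes (Kif21a). For the interaction of LPS and condition both the likelihood-ratio test and DESeq2 called 1 member, Kif21a. Without the shares of all genes beside them, these counts are no result about the members. After LPS in CTR there were 17 calls, 8 of them with a log2 fold change above 1 in size, and 11 with the number before the point in the mouse label as a replicate block. In ELS 14 calls became 9 with the fold threshold and stayed 14 with the block. The shares of all genes under these settings are not given here, so these counts too are no result about the members. The causes were not tested. Deviations of PBS and LPS mice that share a number had correlations between -0.04 and 0.08. No like value was made for mice with different numbers, so whether the numbers pair the mice was not settled. The block shows only how the calls move. No paired analysis was possible for age or for ELS against CTR because these groups share at most 1 number (15, for age in CTR).

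Leaving out single P200 mice gave 48 to 53 calls for age in CTR, 46 to 54 in ELS, 12 to 18 for LPS in CTR, 12 to 14 in ELS, 0 to 1 for ELS after PBS (Kif22 without P200_15.1_CTR_PBS) and 0 in the other comparisons. These ranges stand without shares of all genes and show only how the calls move. No value changed its direction. Apart from the fold threshold, every alternative kept 32 of 35 named calls for age in CTR, 33 of 38 in ELS, 9 of 17 for LPS in CTR and 8 of 13 in ELS. Members with few counts in adults limit the comparisons of ELS with CTR.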
